A study of Mus musculus with 22 samples.

Results

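The 32 genes described here carry out or control the synthesis of sterols and fatty acids. They were taken by gene name from the 24490 entries that each deposited table holds, and were chosen with earlier results of these data known. Their RNA was followed across all 22 libraries of a study of cultured mouse cortical neurons. Of the 32 genes, 32 passed the filter on low values (their FPKM averaged 1 or more across libraries), so each one was among the 12097 genes tested. FPKM counts sequenced fragments per length of transcript and per size of library, so levels can be set side by side between genes. Scaled FPKM are the deposited values divided by 1 factor per library, the median ratio to a common reference, and log2 differences are of log2(scaled FPKM + 1), which understates changes of low genes.

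All neurons were Creb1-/- on a C57BL/6 background, taken from cortex at E16.5 and used after 7 days in vitro. Every culture, GFP included, was depolarized for 2 h with 55 mM KCl while 1 µM TTX blocked sodium channels and 100 µM D-AP5 blocked NMDA receptors, so the effect of depolarization itself was not measured. Herpes simplex virus (HSV) vectors brought in a form of the transcription factor CREB or the control protein GFP. With 8 h of virus there were 2 libraries for S40A-S133A-CREB, which lacks the glycosylation and the phosphorylation site, 2 for S133A-CREB, which lacks the phosphorylation site, 4 for S40A-CREB, which lacks the glycosylation site, 4 for wild-type CREB (WT) and 4 for GFP. With 4 h of virus there were 2 each for S40A-CREB, WT and GFP. The sources used here do not give the deleted stretch of Creb1. Runs were inferred from numbers in the deposited file names, read with the replicate numbers of the titles, as no label names them. By this reading the libraries fall in 6 runs of 3 or 5, each with every virus of its set once. The runs are called here the first (replicate 1) and second (replicate 2) 4 h run, replicate 1 and replicate 2 of the earlier 8 h set, and the first and second run of the later 8 h set. In the earlier 8 h set the deviations of same-numbered libraries from their group means correlated at -0.04 to 0.05, so its runs are the least certain. No run holds both times, so time and run cannot be told apart.

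Mammalian cells build cholesterol from acetyl-CoA through mevalonate, isoprenoid diphosphates, squalene and lanosterol. The membrane-bound transcription factors SREBP-1 and SREBP-2 switch on this pathway and fatty acid synthesis when sterols run low. SCAP escorts them to the Golgi for cleavage, and INSIG proteins hold the complex back in the endoplasmic reticulum when sterols are plentiful. Cultured neurons take part of their cholesterol from glia and make part of it themselves. CREB is known from liver as a regulator of metabolic genes, and it binds the cAMP response element (CRE), whose core is TGACGTCA.

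Promoter windows from RefSeq (GRCm38.p6, the assembly of mm10) were matched by gene symbol for 25 of the 32 genes. Fdps, Stard4, Sqle, Scd1, Scd2, Fdft1 and Fads1 were not matched. Shown are the 250 bases before the start of 6 genes that the results below turn on: Hmgcs1 and Msmo1, the most abundant genes of the mevalonate and sterol steps, Insig1, the most abundant of the control genes, and Cyp51, Hsd17b7 and Srebf2, which hold a CRE half-site. They run 5′ to 3′ on the strand of the gene. Capitals mark the sterol response element TCACNCCAC, the CRE half-site TGACG and the CCAAT box of the factor NF-Y, each searched on both strands, so that the reverse complement is in capitals too. The windows are chr13:119690101-119690350 (plus strand) for Hmgcs1, chr8:64733579-64733828 (minus) for Msmo1, chr5:28071162-28071411 (plus) for Insig1, chr5:4104698-4104947 (minus) for Cyp51, chr1:169969206-169969455 (minus) for Hsd17b7 and chr15:82147019-82147268 (plus) for Srebf2.
Hmgcs1: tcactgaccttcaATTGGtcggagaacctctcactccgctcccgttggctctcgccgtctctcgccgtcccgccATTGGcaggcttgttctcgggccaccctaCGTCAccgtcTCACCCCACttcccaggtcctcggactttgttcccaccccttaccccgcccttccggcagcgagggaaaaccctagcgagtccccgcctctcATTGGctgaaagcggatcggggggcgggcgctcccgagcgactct
Msmo1: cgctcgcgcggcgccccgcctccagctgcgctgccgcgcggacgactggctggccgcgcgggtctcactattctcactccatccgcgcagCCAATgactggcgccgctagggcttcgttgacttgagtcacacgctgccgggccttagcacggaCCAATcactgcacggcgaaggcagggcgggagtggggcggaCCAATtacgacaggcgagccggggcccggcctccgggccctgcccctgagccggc
Insig1: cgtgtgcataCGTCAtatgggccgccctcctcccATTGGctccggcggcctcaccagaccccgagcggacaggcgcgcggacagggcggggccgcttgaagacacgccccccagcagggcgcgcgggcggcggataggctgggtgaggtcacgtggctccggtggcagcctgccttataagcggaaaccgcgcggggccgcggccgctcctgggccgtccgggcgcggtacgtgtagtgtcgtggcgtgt
Cyp51: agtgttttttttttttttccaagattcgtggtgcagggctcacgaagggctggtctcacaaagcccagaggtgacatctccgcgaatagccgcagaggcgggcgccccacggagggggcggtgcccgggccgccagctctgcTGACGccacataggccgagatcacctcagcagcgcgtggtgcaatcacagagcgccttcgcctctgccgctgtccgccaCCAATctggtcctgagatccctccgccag
Hsd17b7: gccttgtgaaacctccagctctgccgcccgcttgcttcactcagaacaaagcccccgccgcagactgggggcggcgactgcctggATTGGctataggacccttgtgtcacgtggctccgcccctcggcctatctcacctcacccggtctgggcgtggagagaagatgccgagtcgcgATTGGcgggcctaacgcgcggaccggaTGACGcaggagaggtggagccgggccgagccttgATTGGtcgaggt
Srebf2: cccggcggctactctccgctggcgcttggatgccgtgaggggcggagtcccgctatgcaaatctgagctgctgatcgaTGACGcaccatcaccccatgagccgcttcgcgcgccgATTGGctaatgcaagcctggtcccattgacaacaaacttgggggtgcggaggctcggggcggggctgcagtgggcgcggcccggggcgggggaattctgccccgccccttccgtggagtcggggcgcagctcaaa

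In these sequences Hmgcs1 has a CRE half-site at -147 and a sterol response element at -137, counted from the gene's start. The half-site lies at -240 in Insig1, -108 in Cyp51, -46 in Hsd17b7 and -172 in Srebf2, and Msmo1 has 0 in the window. No base of the 6 windows lies in more than 1 marked motif (0 shared bases). Over windows of 250 bases before to 50 after a start, the half-site TGACG was in 27.3% of the 33 windows of the 25 genes and in 20.8% of all 32851 windows. The full CRE TGACGTCA, which contains the half-site on both strands by its construction, was in 0% against 1.79%. The sterol response element was in 3.03% against 1.24%, which is the Hmgcs1 window alone. CCAAT was in 63.6% against 37.4%, the Sp1 box GGGCGG in 75.8% against 35.7%, and the E-box CACGTG in 18.2% against 7.15%. These are matches of letters, with no binding data behind them, and the E-box and the half-site can share bases in other windows.

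Estimated depth was 17.7 to 29.5 M fragments per library, and no pair of libraries held identical values. Creb1, carried by the CREB viruses, stood at 566 to 2306 scaled FPKM in the 12 CREB libraries and 9.56 to 14.9 in the 4 GFP libraries at 8 h, and at 234 to 268 in CREB and 11.8 to 15.7 in GFP libraries at 4 h. The 3 libraries of the first 4 h run stood apart from the others in the form of their values. Only 8.78% to 10.4% of their low-level genes held a whole number of fragments (within 0.05), against 80.3% in GFP replicate 2 at 8 h and 91.2% to 92.8% in the rest. In these 3 libraries, 9 to 11 of the 32 genes had a value outside the authors' own deposited interval, against 0 in each of the other 19 libraries. Pmvk, Idi1, Fdps and Acaca were higher in these 3 libraries and GFP replicate 2 at 8 h than in all 18 others, as were 5.89% of all genes. The difference between the times is therefore given with and without these libraries. No label says that replicates came from separate cultures. What the p-values weigh is therefore the scatter of these libraries, and it may be technical.

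The 32 genes spanned a wide range of levels. Hmgcs1 (chromosome 13, 119690351 to 119708260, mm10), which makes HMG-CoA in the cytosol, was the highest with a mean of 522 scaled FPKM over the 22 libraries. Scd2 (chromosome 19, 44293676 to 44306862), a stearoyl-CoA desaturase, followed with 270, Msmo1 (chromosome 8, 64718145 to 64733578), which removes methyl groups from lanosterol products, with 170, and Cyp51 (chromosome 5, 4080674 to 4104697), the lanosterol demethylase, with 134. Of the 31 genes never listed at 0, Ebp, a sterol isomerase, with 5.06 and Acaca, acetyl-CoA carboxylase, with 5.07 were the lowest. Srebf2 (chromosome 15, 82147269 to 82204960), the gene of SREBP-2, averaged 65.7. Srebf1 (chromosome 11, 60199089 to 60220604), the gene of SREBP-1, was listed at 0 in 4 libraries at 8 h (S133A replicate 1, S40A replicate 3, WT replicate 3 and GFP replicate 4) and at 3.46 to 11.4 in the other 18, so it is given no mean or rank here.

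The spread across libraries also differed between genes. Stard4, a cytosolic carrier of cholesterol, had a highest value 14.3 times its lowest, Fdps, farnesyl diphosphate synthase, 7.41 times, Msmo1 6.98 times, Sc5d, sterol C5 desaturase, 6.76 times and Insig1 6.29 times. Fads1, the delta-5 desaturase, varied 1.35 times and Scap 1.46 times. For 22 of the 31 genes never listed at 0 the lowest of all 22 values was that of GFP replicate 3 at 8 h. Overlapping entries make Fdft1 (with Ctsb), Lss (4930483K19Rik), Tm7sf2 (Vps51), Srebf1 (Rai1, Mir6921 and Mir6922), Srebf2 (Mir33), Scd2 (Mir5114) and Fads1 (Mir6993) less certain, because the sources used here do not give how strand was handled.

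**Figure D1:**
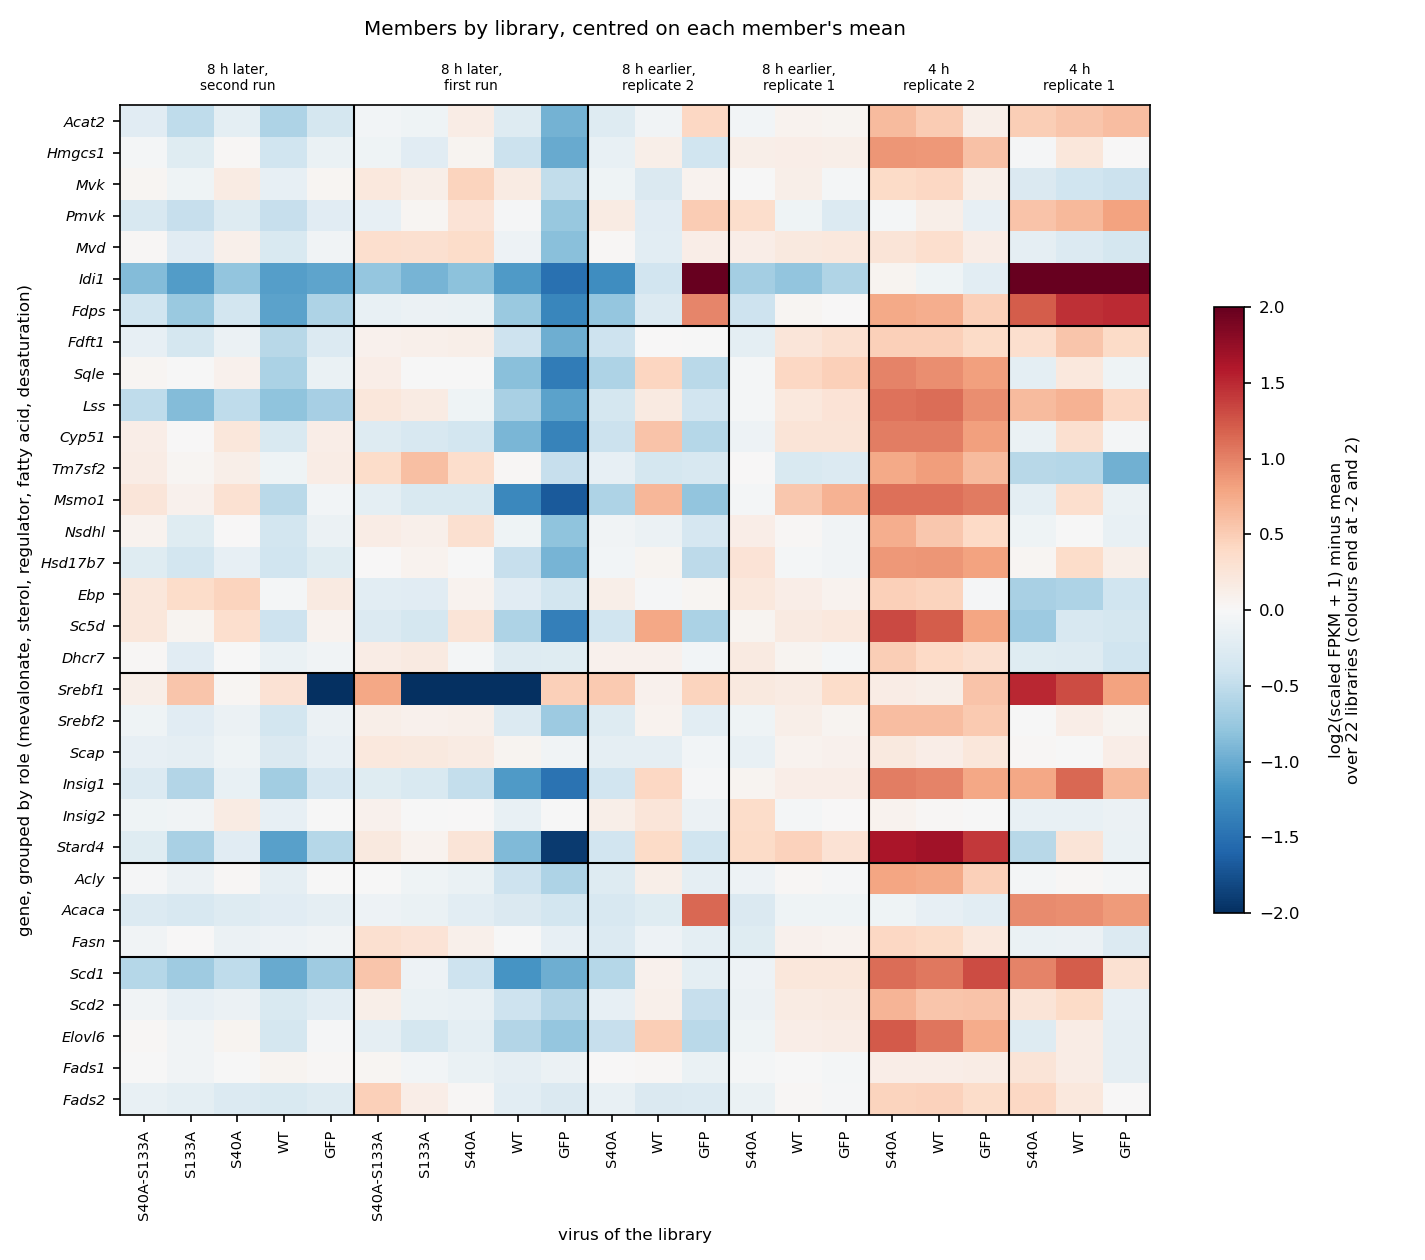
Each cell is log2(scaled FPKM + 1) of 1 gene in 1 library minus that gene's mean over the 22 libraries, with genes in rows by role and libraries in columns by run, and colours end at -2 and 2. The second 4 h run is high for most sterol genes, GFP replicate 3 (first run of the later 8 h set) is low for most, and Idi1 is high in the first 4 h run and in GFP replicate 2 at 8 h.

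Calls among the 32 genes came between times and between runs, and 0 came between viruses. Limma called 18 of the 32 genes between 8 h and 4 h (adjusted p under 0.05 over all genes tested), and all 18 were lower at 8 h. This comparison averages S40A, WT and GFP at each time, in a fit of all 22 libraries. The fit has no term for run, so its SEs and p-values treat libraries of 1 run as independent. At 4 h the deviations of same-numbered libraries from their group means correlated at 0.55 to 0.56, so these SEs and p-values may be too small. Over all genes 42.5% were called, 21.5% higher and 21% lower at 8 h, and 56.2% of the 32 were called. The median log2 difference was -0.53 over the 32 genes and -0.02 over all genes tested, and 3 of the 32 were higher and 29 lower. With FPKM as deposited, 63.8% of all calls were higher at 8 h, against 50.6% with scaled values. Then 4642 of all genes were called and 16 of the 32, all lower. By role, those called lower were 4 of 7 mevalonate genes, 5 of 11 sterol genes, 3 of 6 control genes, 1 of 3 fatty acid genes and 5 of 5 desaturation and elongation genes.

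Lss, lanosterol synthase, which closes the epoxide of squalene into the first sterol ring system, showed the difference in every library. It stood at 14.3 to 38.1 scaled FPKM in the 16 libraries at 8 h (median 23.9), against 60.3, 67.7 and 68.8 in the second 4 h run and 42.0, 49.0 and 51.3 in the first. The 2 times did not overlap (log2 difference -1.14, SE 0.22, adjusted p = 0.00072 by limma). Insig1 stood at 35.0 to 132 at 8 h (median 80.9), against 170, 199 and 203 in the second 4 h run and 157, 170 and 220 in the first. Here too the times did not overlap (-1.22, SE 0.23, adjusted p = 0.00059). Fdft1, squalene synthase, was the third gene with all 16 libraries at 8 h below all 6 at 4 h (-0.62, SE 0.16, adjusted p = 0.0059), and 4.32% of all genes had that order.

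Most other genes overlapped because the first 4 h run lay at the level of the 8 h libraries. Hmgcs1 stood at 249 to 549 scaled FPKM at 8 h (median 465), against 751, 912 and 929 in the second 4 h run and 490, 502 and 584 in the first. Its second 4 h run lay above every library at 8 h and its first run among the highest of them (log2 difference -0.58, SE 0.17, adjusted p = 0.013). Msmo1 stood at 46.7 to 246 at 8 h (median 139), against 312, 326 and 326 in the second 4 h run and 132, 139 and 192 in the first, and was not called (-0.80, SE 0.36, adjusted p = 0.081). Stard4 stood at 4.89 to 29.6 at 8 h (median 17.8), against 58.0, 67.7 and 70.1 in the second 4 h run and 14.1, 19.2 and 25.4 in the first (-1.02, SE 0.39, adjusted p = 0.046). Its first 4 h run lay within the range of the 8 h libraries. For 19 of the 32 genes (59.4%), all 16 libraries at 8 h lay below the 3 of the second 4 h run, as for 12.6% of all genes tested.

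Acly, ATP citrate lyase, which supplies cytosolic acetyl-CoA to both branches, stood at 54.3 to 90.8 scaled FPKM at 8 h (median 78.6), against 118, 142 and 146 in the second 4 h run and 81.3, 81.8 and 85.3 in the first. It was lower at 8 h (log2 difference -0.47, SE 0.14, adjusted p = 0.013) while its first 4 h run lay inside the 8 h range. Scd2 stood at 175 to 298 at 8 h (median 239), against 388, 389 and 422 in the second 4 h run and 234, 315 and 344 in the first (-0.55, SE 0.13, adjusted p = 0.0028). Scd1, the other stearoyl-CoA desaturase measured, differed more (-1.43, SE 0.25, adjusted p = 0.00029). The remaining desaturation and elongation genes were lower as well, with Fads2, the delta-6 desaturase, at -0.50, Elovl6, a fatty acid elongase, at -0.64 and Fads1 at -0.15. Fatty acid synthase itself, Fasn, was not called (-0.16, adjusted p = 0.22).

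Fdps and Idi1, the isopentenyl diphosphate isomerase, behaved differently from the sterol genes. Fdps stood at 12.6 to 65.2 scaled FPKM at 8 h (median 24.8), against 45.8, 54.7 and 56.0 in the second 4 h run and 77.4, 91.6 and 93.5 in the first. Idi1 stood at 0.923 to 40.7 at 8 h (median 2.00), against 3.66, 4.09 and 4.63 in the second 4 h run and 58.5, 67.8 and 83.3 in the first. For both the first 4 h run was the highest, and the top of the 8 h range was GFP replicate 2, without which the 8 h libraries ended at 33.7 for Fdps and 3.13 for Idi1. The log2 differences were -1.41 for Fdps (SE 0.28, adjusted p = 0.00078) and -2.41 for Idi1 (SE 0.73, adjusted p = 0.015). Without the first 4 h run, which leaves 1 library per virus at 4 h, they were nearer to 0, at -1.04 for Fdps and -0.52 for Idi1. With GFP replicate 2 at 8 h left out as well, they were -1.18 for Fdps and -0.85 for Idi1.

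**Figure D2:**
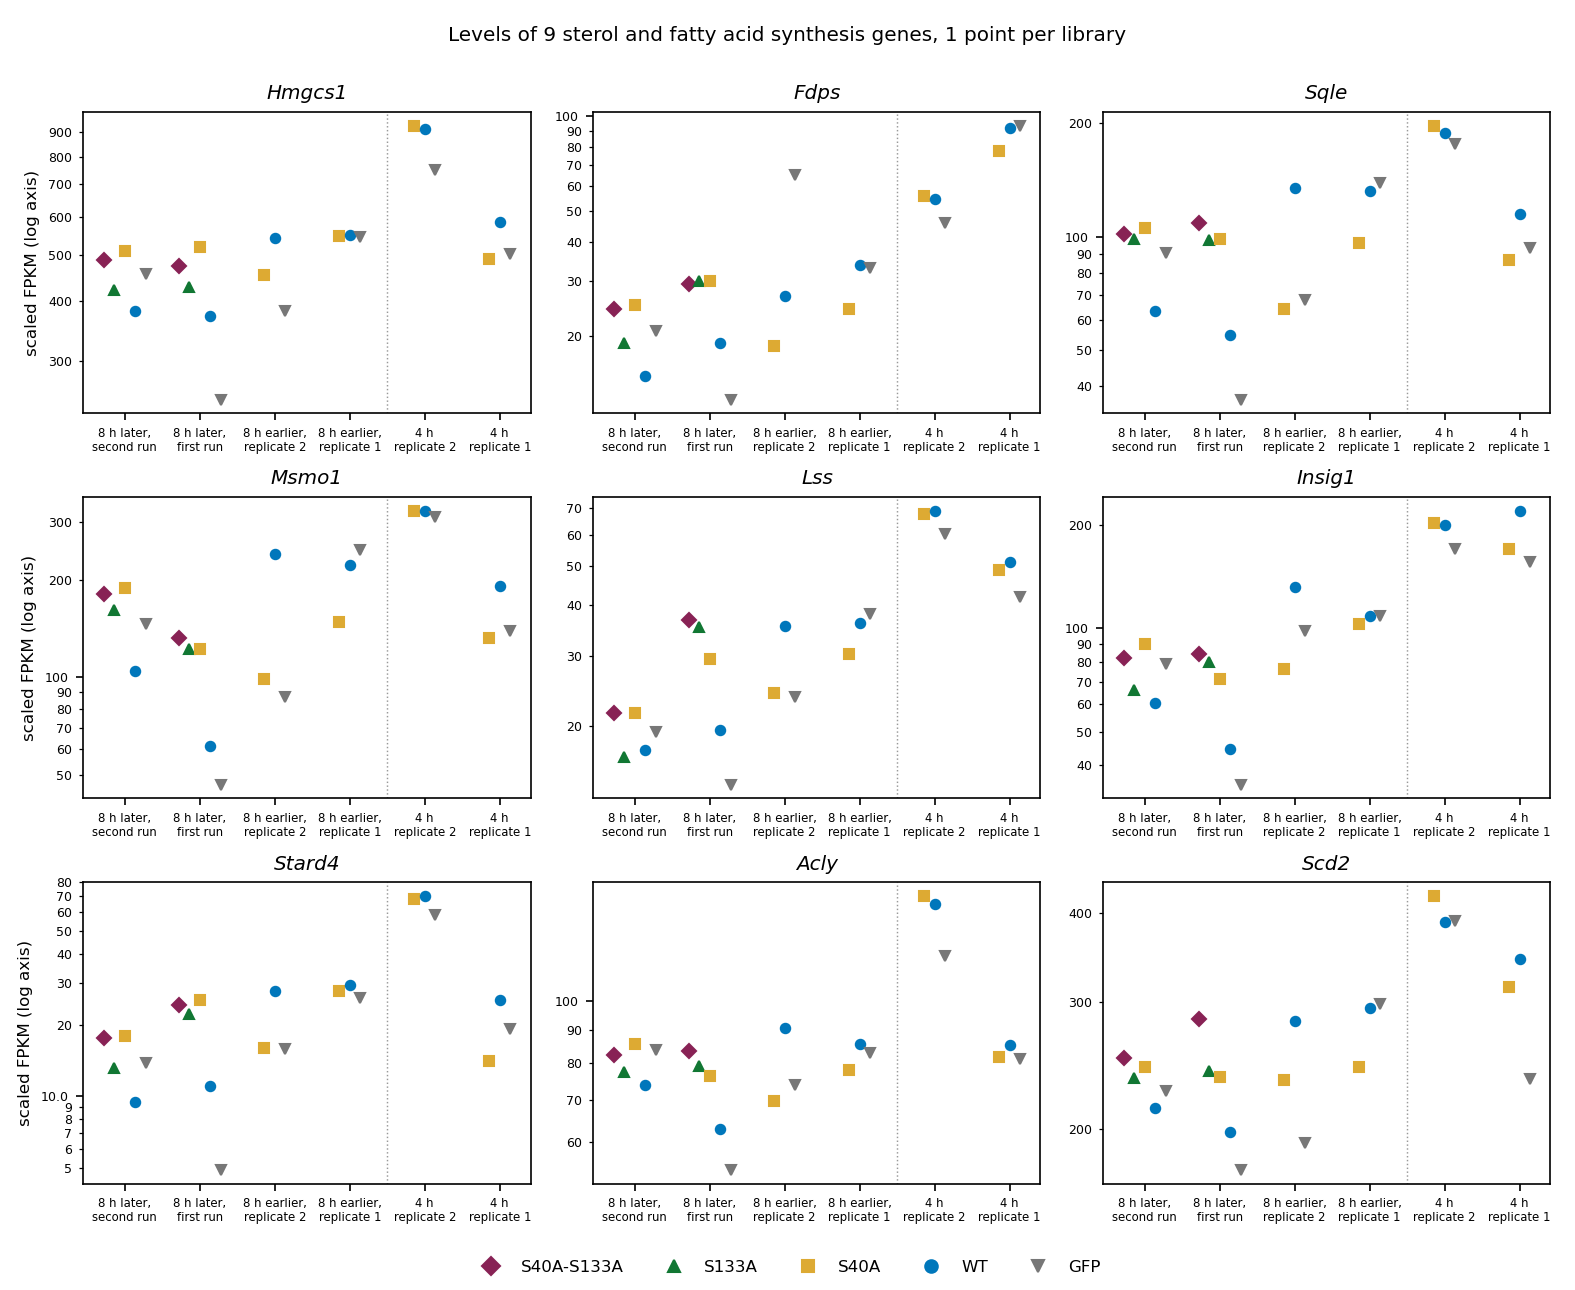
Scaled FPKM (log axis) of 9 genes in each of the 22 libraries, by run from the later 8 h set on the left to the first 4 h run on the right, with 1 point per library coloured by virus. Lss and Insig1 lie lower in every 8 h library than in either 4 h run, whereas the first 4 h run of Hmgcs1, Sqle, Msmo1, Stard4 and Acly lies at or near the 8 h levels.

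Other called genes included Hsd17b7, a keto-sterol reductase (log2 difference -0.72, adjusted p = 0.0018 by limma), Acat2, the cytosolic acetoacetyl-CoA thiolase (-0.66, adjusted p = 0.0039), and Srebf2 (-0.47, adjusted p = 0.0091). Hsd17b7 stood at 10.6 to 25.5 scaled FPKM at 8 h (median 19.3), against 37.5 to 39.8 in the second 4 h run and 21.5 to 27.5 in the first. Cyp51 (-0.71) and Nsdhl, a sterol dehydrogenase (-0.36), had adjusted p values of 0.041 and 0.045. Mvk, mevalonate kinase, at 0.03, Mvd, mevalonate diphosphate decarboxylase, at -0.02 (above 0 with FPKM as deposited), Dhcr7, 7-dehydrocholesterol reductase, at -0.09, and Insig2 at 0.09 were among the 14 genes not called. So were Ebp at 0.18, Tm7sf2, a sterol reductase, at -0.13, Sc5d at -0.45, Sqle, squalene epoxidase, at -0.68, Scap at -0.19, Pmvk, phosphomevalonate kinase, at -0.41, and Acaca at -0.49. With any 1 library left out, limma called 13 to 20 of the 32, and 10 of the 18 calls held under each of the 22 omissions (Acat2, Fdps, Fdft1, Lss, Hsd17b7, Srebf2, Insig1, Scd1, Scd2 and Fads2).

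The other 8 calls each depended on single libraries. Hmgcs1 was lost without GFP, WT or S40A replicate 2 at 4 h (nearest to 0 at -0.43) and Acly without the same libraries (nearest -0.34). Idi1 was lost without GFP, WT or S40A replicate 1 at 4 h (nearest -1.73). Fads1 was lost without GFP replicate 2, WT replicate 1 or S40A replicate 1 at 4 h or GFP replicate 3 at 8 h (nearest to 0 at -0.10). Elovl6 was lost without any library of the second 4 h run, GFP or S40A replicate 2, GFP or WT replicate 3 or WT replicate 4 at 8 h (nearest -0.39), and Cyp51 without any of these or S40A replicate 1 or 3 at 8 h (nearest -0.52). Nsdhl was lost in 13 of the 22 omissions (nearest -0.23). Stard4 was lost in 16 (nearest -0.66) and held only without a library of the first 4 h run, GFP replicate 1, WT replicate 1 or WT replicate 2 at 8 h. Without the whole first 4 h run, an alternative chosen after the data were seen, 30 of the 32 genes were lower at 8 h. Their median was -0.71, against -0.005 over all genes tested. Acat2 (-0.59) and Idi1 (-0.52) lay nearer to 0 than in the full fit. Sqle (-1.15), Tm7sf2 (-0.85), Msmo1 (-1.34), Sc5d (-1.23), Dhcr7 (-0.44) and Fasn (-0.42), not called in the full fit, lay further below 0. With GFP replicate 2 at 8 h left out as well, 31 were lower, with a median of -0.75, against -0.01 over all genes tested. Both fits assume that each lone 4 h sample varies like the other groups.

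**Figure D3:**
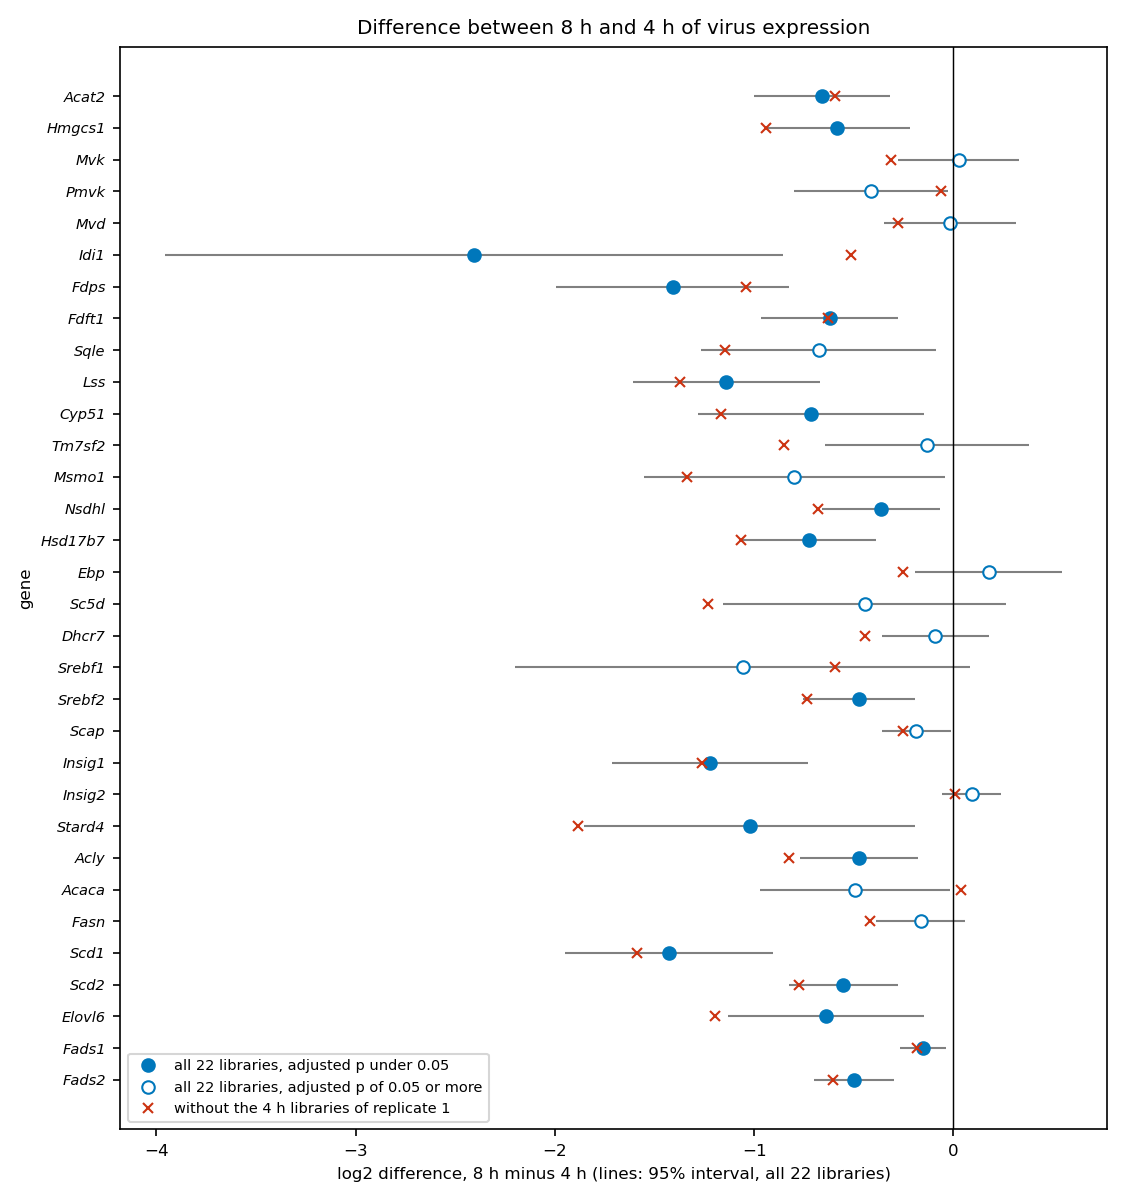
Log2 difference of 8 h minus 4 h for each of the 32 genes with its 95% interval from limma (filled points are called at an adjusted p under 0.05), and crosses for the same value without the first 4 h run. Of the 32 points, 29 lie below 0, and Stard4, Msmo1, Sc5d and Tm7sf2 lie further below 0 without that run, whereas Idi1 lies nearer to 0.

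Over all genes the 2 runs at 4 h differed almost as widely as the times did. More of the 32 genes were called between these runs than between the times (68.8% against 56.2%). Limma called 22 of the 32 genes between replicate 2 and replicate 1 at 4 h, 18 higher and 4 lower in replicate 2, where 40.8% of all genes were called (19.9% higher, 20.9% lower). Higher in replicate 2 were Stard4 (log2 difference 1.72, adjusted p = 0.011), Sc5d (1.57, adjusted p = 0.015), Tm7sf2 (1.44, adjusted p = 0.0040), Elovl6 (1.11, adjusted p = 0.015) and Msmo1 (1.08, adjusted p = 0.015). Lower in replicate 2 were Idi1 (-3.78, adjusted p = 0.0019), Acaca (-1.07, adjusted p = 0.0056), Fdps (-0.74, adjusted p = 0.025) and Pmvk (-0.70, adjusted p = 0.020), which are the 4 genes that also stood apart in GFP replicate 2 at 8 h. By role, 10 of 11 sterol genes were higher, and the 6 mevalonate genes called divided 3 to 3. With FPKM as deposited, the median of all genes moved by -0.24, 6 of the 32 changed sign (Fads1, Fads2, Fdft1, Insig1, Insig2 and Scap), and 18.9% of all calls were higher in replicate 2, against 48.7% with scaled values. The 32 genes then had 16 calls higher and 6 lower, where 6054 of all genes were called. This fit had 2 residual degrees of freedom, and leaving out a WT library left 2 of the 22 calls, an S40A library 3. Over all genes, 661 to 670 were called without a WT library and 482 to 488 without an S40A library.

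Depolarization-induced genes and dividing-cell genes moved with these runs. Of 12 activity-induced genes, 12 were called higher in replicate 2 at 4 h (median log2 difference 1.98), led by Egr3 at 3.02, Egr2 at 2.88 and Fosb at 2.87. Their summed level was 3701 to 4177 scaled FPKM in the second 4 h run, 881.9 to 3266 at 8 h, and 680.8 to 1368 in the first 4 h run. Of 7 genes of dividing cells, 4 were called lower in replicate 2. The part of these genes in the pathway's differences was not tested.

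Marker genes of other cell types were also called between the times, where 21% of all genes were called lower and 21.5% higher. Summed astrocyte markers stood at 73.4 to 317 scaled FPKM at 8 h and 198 to 787 at 4 h, with 5 of 9 genes called lower at 8 h, led by Fabp7 at -1.82, Sox9 at -1.43 and Aldh1l1 at -1.30. Oligodendrocyte lineage markers summed to 19.3 to 52.8 at 8 h and 54.4 to 102 at 4 h, with 4 of 7 lower, among them Olig2 at -2.08, Pdgfra at -1.45 and Olig1 at -1.18. All 7 genes of dividing cells were lower (Top2a at -2.55, Ccnb1 at -2.01, Mki67 at -1.86), with sums of 14.8 to 36.6 at 8 h and 47.9 to 163 at 4 h. Neuronal markers, present in every library, divided 4 higher (Slc17a7 at 1.31, Nefl at 0.85) to 2 lower (Gad1 at -1.02) of 10, with sums of 1643 to 2284 at 8 h and 1506 to 2074 at 4 h. Of 2 microglial and 2 vascular and fibroblast genes tested, 1 was lower (Cd68 at -0.83) and 1 higher (Col1a1 at 1.05). The microglial list summed to 3.57 to 36.5 at 8 h and 11.7 to 20.3 at 4 h, and the vascular and fibroblast list to 2.68 to 7.67 at 8 h and 1.86 to 4.41 at 4 h. No marker was at 0 in every library, and Csf1r, Cx3cr1, Cspg4, Cldn5, Col1a2, Col3a1, Pecam1 and Vtn were under 1 FPKM in each. The sums lean on the highest gene of a list, Fabp7 among astrocyte markers (mean 156 over the 22 libraries) and Stmn2 among neuronal markers (892). In bulk RNA, fewer cells of a type and less RNA per cell cannot be told apart, and the part of these cells in the pathway's difference was not tested.

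Genes next to the pathway were called in both directions between 8 h and 4 h in most lists, and these counts stand beside the 21.5% of all genes called higher and 21% called lower. Of 10 genes of the isoprenoid branches beyond farnesyl diphosphate, 5 were higher and 2 lower, with Pdss1, a polyprenyl diphosphate synthase of ubiquinone synthesis, at 3.32, Cox10, which farnesylates haem, at 0.82 and Pdss2 at 0.48. Of 13 genes of SREBP processing and sterol sensing, 0 were higher and 5 lower (Vcp, an ATPase of protein extraction, at -0.83, Erlin2 at -0.42 and Sec23a, a vesicle coat protein, at -0.33). Cholesterol export, storage and transport had 7 higher and 3 lower of 16 (Abcg4, a sterol exporter, at 0.87, Osbpl1a at 0.83, Scarb2 at -0.73). Other fatty acid synthesis genes had 3 higher and 3 lower of 18, with Lpin1, a phosphatidate phosphatase, at -1.32, Hsd17b12 at -1.28 and Elovl4 at 0.59. Fatty acid oxidation had 2 higher and 0 lower of 13, with Cpt1a, which loads fatty acids into mitochondria, at 1.08 and Acadl at 0.80. Of the 12 activity-induced genes, 1 was called, Arc at 1.55.

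Against GFP, no form of CREB changed any of the 32 genes past the threshold at 8 h. Averaged over the 4 forms, 29 of the 32 were higher and 3 lower (median log2 difference 0.23, against 0.01 over all genes), limma called 0 of them, and 5 of 32 had an unadjusted p under 0.05 (620 of 12097 genes, or 5.13%). The share of all genes called was 0.0248%, and 52% of all genes were higher. Hsd17b7 had the smallest p. It stood at 22.1 and 16.2 scaled FPKM with S133A, 21.1 and 17.6 with S40A-S133A, 25.5, 20.3, 20.8 and 18.6 with S40A and 20.5, 21.9, 15.1 and 15.7 with WT, against 20.1, 14.3, 10.6 and 17.7 with GFP. The GFP libraries hold the 2 lowest values and overlap the CREB libraries (log2 difference 0.40, SE 0.14, adjusted p = 0.83). Nsdhl followed at 0.35 and Tm7sf2 at 0.28 (adjusted p = 0.83 each), and Stard4 had the largest difference above 0, 0.72 (SE 0.31, adjusted p = 0.83). Without GFP replicate 3 the median over the 32 genes was 0.07.

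Each form alone gave the same count of 0 calls by limma. S40A-S133A against GFP had 30 of 32 higher (median log2 difference 0.37) and 7 at an unadjusted p under 0.05 (423 of all genes), led by Dhcr7 at 0.27, Nsdhl at 0.49 and Fads2 at 0.41 (adjusted p = 0.98 each), where 0.0165% of all genes were called. S133A against GFP had 30 of 32 higher (median 0.23) and 1 unadjusted (287 of all genes), Tm7sf2 at 0.42, followed by Hsd17b7 at 0.45 and Stard4 at 0.79 (adjusted p = 0.99 each), where 0.0248% were called. S40A against GFP had 26 of 32 higher (median 0.17) and 3 unadjusted (712 of all genes), Hsd17b7 at 0.45, Nsdhl at 0.43 and Tm7sf2 at 0.31 (adjusted p = 0.79 to 0.84), where 0.00827% were called. WT against GFP had 23 of 32 higher (median 0.05) and 0 unadjusted (130 of all genes), with Hsd17b7 at 0.23, Acaca at -0.34 and Nsdhl at 0.19 first by p (adjusted p = 1 each), and 0.00827% called. These 4 comparisons share the GFP libraries, and 51.4%, 51.9%, 52.3% and 49.7% of all genes were higher in them, in that order. S133A and S40A-S133A were only in the later 8 h set, and the term for set joined them to GFP and WT libraries of both sets. Without GFP replicate 3 the medians against GFP were 0.17 for S40A-S133A, 0.06 for S133A, 0.04 for S40A and -0.02 for WT. In the later 8 h set alone the median for S40A against GFP was 0.47.

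The mutated forms were also set against WT at 8 h, which asks what the loss of each site changes. Over all genes, 52.6% were higher with S40A-S133A, 53% with S133A and 51.6% with S40A. Within the first and second later runs, the medians of the 32 were 0.40 and 0.27 for S40A-S133A minus WT. For S133A minus WT they were 0.31 and 0.12. S40A-S133A against WT had 32 of 32 genes higher (median log2 difference 0.25), 0 called by limma (0.00827% of all genes) and 3 at an unadjusted p under 0.05 (192 of all genes), namely Scd1 at 0.83, Fads2 at 0.40 and Dhcr7 at 0.23 (adjusted p = 1 each). S133A against WT had 30 of 32 higher (median 0.15), 0 called (0.0165% of all genes) and 0 unadjusted (169 of all genes), with Tm7sf2 at 0.37, Scd1 at 0.44 and Dhcr7 at 0.13 first by p. S40A against WT had 23 of 32 higher (median 0.06, and 0.36 in the later 8 h set alone), 0 called (0% of all genes) and 0 unadjusted (498 of all genes), with Insig2 at 0.19, Tm7sf2 at 0.26 and Pmvk at 0.34 first by p. The interaction of the S40 and S133 sites had 0 called (0.0248% of all genes) and 0 unadjusted (78 of all genes), with Tm7sf2 at -0.32, Ebp at -0.32 and Pmvk at -0.37 first by p (adjusted p = 1 each). Its median over the 32 genes was 0.06, and -0.25 in the later 8 h set alone, which holds all 5 viruses.

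At 4 h no gene of the pathway was called between the viruses either. S40A against GFP had 27 of 32 higher (median log2 difference 0.14), with Fads1 at 0.20, Fads2 at 0.24 and Insig1 at 0.18 first by p. WT against GFP had 30 of 32 higher (median 0.17), with Insig1 at 0.36, Fdft1 at 0.14 and Fads1 at 0.15, and S40A against WT had 12 higher and 20 lower (median -0.04), with Insig1 at -0.17, Fdft1 at -0.11 and Fads2 at 0.10. Limma called 0 of the 32 in each and 0 had an unadjusted p under 0.05, where 0.0909% of all genes were called in each of the 3 and 59, 42 and 38 genes were unadjusted. In the same order, 51.4%, 53.6% and 46.2% of all genes were higher. The fit at 4 h had no term for run, and the 2 runs lie far apart. Leaving out 1 library therefore moved these medians by more than their size. They ran from -0.11 to 0.42 for S40A against GFP, -0.09 to 0.41 for WT against GFP and -0.29 to 0.23 for S40A against WT. Within the first and second 4 h run, WT lay above GFP in 26 and 27 of 32 genes (medians 0.19 and 0.15). S40A lay above GFP in 15 and 28 (-0.03 and 0.16). Over all genes, 47.4% and 55.9% were higher with WT than GFP, and 47.8% and 51.2% with S40A. Whether the effects differed between the times was tested in the fit of all 22 libraries. Limma called 0 of the 32 for S40A against GFP at 8 h minus 4 h (0.00827% of all genes, 135 unadjusted, none of the 32) and 0 for WT against GFP (0.0165%, 72 unadjusted, none of the 32), with Fads1 first by p in both at -0.18 and -0.11.

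Within runs the order of S40A and WT turned round between the library sets. In the later 8 h set S40A lay above WT in 28 of 32 genes in the second run (median log2 difference 0.33) and in 31 in the first (0.38). In the earlier 8 h set it lay above WT in 8 of 32 in replicate 2 (-0.22) and in 9 in replicate 1 (-0.12), and at 4 h in 19 of 32 in replicate 2 (0.03) and in 10 in replicate 1 (-0.08). Over all genes, S40A lay above WT in 43.6% to 52.1% in these runs. Sqle stood at 105 with S40A and 63.5 with WT in the second run of the later set and at 98.3 with S40A and 54.9 with WT in the first. In the earlier set Sqle stood at 64.1 with S40A and 134 with WT in replicate 2 and at 96.0 with S40A and 132 with WT in replicate 1. Stard4 had the largest log2 difference of S40A minus WT in both later runs, 0.86 in the second and 1.14 in the first.

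Limma tested that turn as a difference of differences, added after the data were seen. S40A minus WT in the later set less the same in the earlier set had 30 of 32 genes above 0 (median log2 difference 0.50) and 8 at an unadjusted p under 0.05 (696 of all genes, 5.75%). It called 0 of the 32, where 0.00827% of all genes were called, with Sqle at 1.53 (SE 0.57), Fdft1 at 0.92 (SE 0.34) and Elovl6 at 0.99 (SE 0.41) first by p (adjusted p = 0.79 each). With FPKM as deposited its median over all genes moved by -0.10 and that over the 32 was 0.38, with Dhcr7, Fads1 and Tm7sf2 changing sign. Within the later set alone S40A against WT had 30 of 32 above 0 (median 0.36), 0 called (0% of all genes) and 1 unadjusted (204 of all genes), Stard4 at 1.00 (adjusted p = 1). Within the earlier set alone it had 10 of 32 above 0 (median -0.20), 0 called (0.00827% of all genes) and 0 unadjusted (1045 of all genes), with Elovl6 at -0.59, Sqle at -0.76 and Fdft1 at -0.43 first by p (adjusted p = 0.58 to 0.62). For S40A against GFP the later less the earlier set had 28 of 32 above 0 (median 0.50), 0 called (0.0165% of all genes) and 3 unadjusted (514 of all genes), Fdps at 1.81, Fdft1 at 1.09 and Acat2 at 1.01 (adjusted p = 0.98). For WT against GFP it had 14 of 32 above 0, 0 called (0.0248%) and 0 unadjusted (93 of all genes), with Insig2 at -0.31, Acaca at 0.71 and Idi1 at 1.92 first by p (adjusted p = 1 each). Leaving out GFP replicate 1 at 8 h brought 3 of the 32 past the threshold for S40A against GFP (484 of all genes) and 2 for WT against GFP (537 of all genes).

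**Figure D4:**
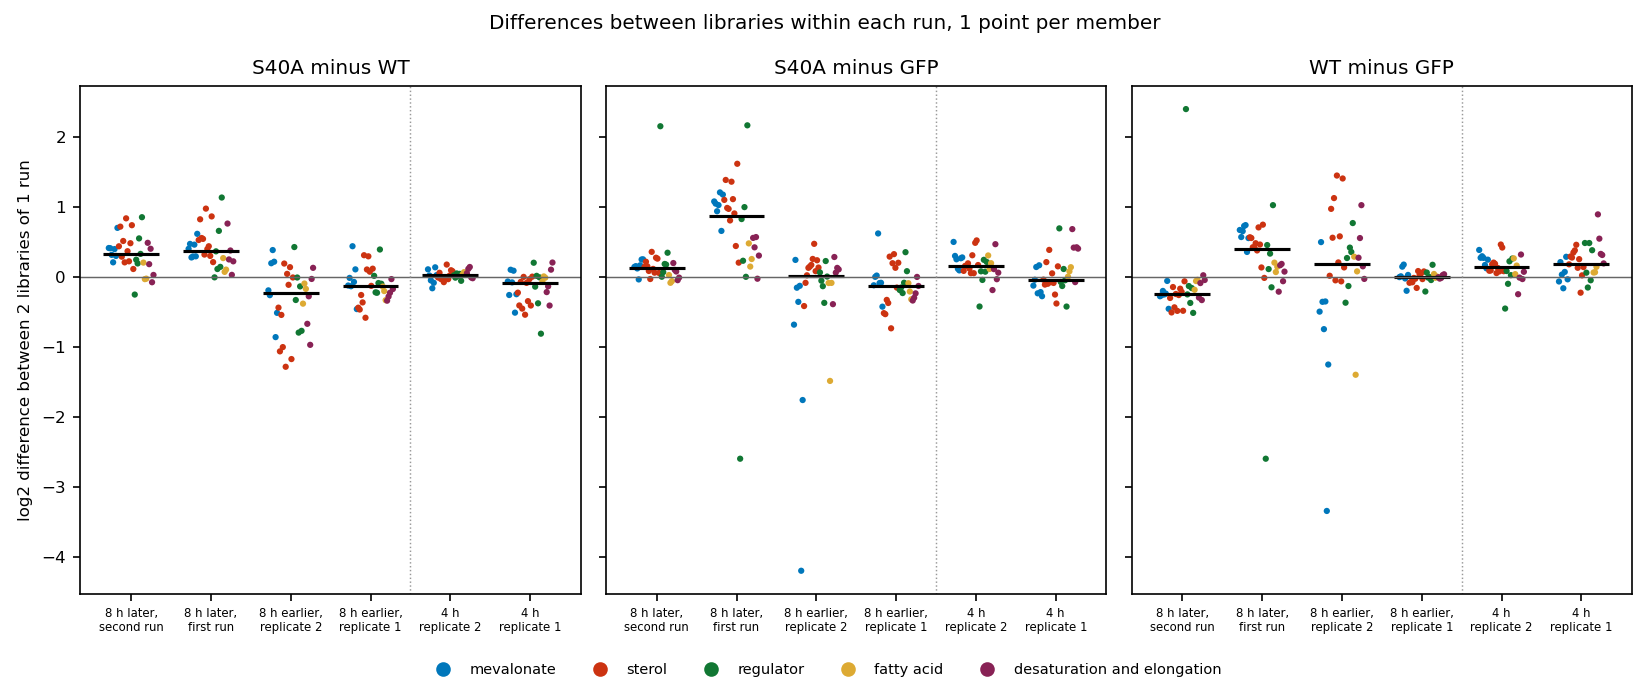
Log2 difference between 2 libraries of 1 run, with 1 point per gene coloured by role and a bar at the median, in panels for S40A minus WT, S40A minus GFP and WT minus GFP. S40A minus WT has medians of 0.33 and 0.38 in the later 8 h set and -0.22 and -0.12 in the earlier one, and the points beyond -2 or 2 are Srebf1 where it was listed at 0, Stard4 in the first later run and Idi1 with GFP replicate 2.

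For each form, the median over the 32 genes was furthest above GFP in the first run of the later set, against GFP replicate 3. In the first run of the later set, S40A-S133A lay above GFP replicate 3 in 32 of 32 genes (median log2 difference 0.83), S133A in 30 (0.81), S40A in 30 (0.87) and WT in 27 (0.41). In the second run the same differences from GFP replicate 4 were above 0 in 25 for S40A-S133A (0.09), 8 for S133A (-0.10), 26 for S40A (0.14) and 2 for WT (-0.23). Over all genes, 45.4% to 54.8% were above 0 in these differences. GFP replicate 3 was the lowest of its 5 libraries for 27 of the 32 genes, as it was for 33.9% of all genes. WT replicate 4 was the lowest of its 5 for 25 of the 32 genes, as for 27.3% of all genes. S40A replicate 4 was the highest of those 5 for 20, as for 20.2% of all genes. Stard4 stood at 24.3 with S40A-S133A, 22.2 with S133A, 25.5 with S40A and 11 with WT, against 4.89 with GFP, in the first run, and at 17.6, 13.1, 17.9 and 9.44 with the same forms, against 13.8 with GFP, in the second.

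Activity-induced genes also differed between libraries of these runs. Their summed level was 1494 scaled FPKM with S40A-S133A, 1661 with S133A, 2056 with S40A and 955 with WT, against 881.9 with GFP, in the first later run. It was 2812, 2807, 3117 and 1910 with the same forms, against 3118 with GFP, in the second. Over the 6 runs, the library with the lowest mean of the 18 mevalonate and sterol genes was also the lowest in activity-induced genes in 5 and in dividing-cell genes in 5, and the highest in fatty acid oxidation genes in 6, in isoprenoid branch genes in 5 and in astrocyte and vascular markers in 4 each. Neuronal markers were lowest there in 4 runs and highest in 2. Other fatty acid synthesis genes were lowest there in 4 and highest in 1, and SREBP processing and sterol sensing genes lowest in 3 and highest in 1. Cholesterol export, storage and transport genes were lowest there in 1 and highest in 3. Microglial and oligodendrocyte lineage markers were each lowest in 1 and highest in 2. Gene by gene, these libraries held the lowest value of their run for 24.3% to 45.3% of all genes, and the highest for 22.3% to 42.1%. At the other end, the library with the highest mean of those 18 genes was the highest in activity-induced genes in 3 runs and the lowest in 1, the highest in dividing-cell genes in 3, and the lowest in fatty acid oxidation genes in 3 and in astrocyte markers in 3. It was the highest in other fatty acid synthesis genes and in SREBP processing and sterol sensing genes in 4 runs each, and the lowest in 0. Neuronal markers were highest there in 3 and lowest in 1, microglial markers 3 and 2, and oligodendrocyte lineage markers 2 and 1. Isoprenoid branch and cholesterol export genes were each highest in 1 and lowest in 2, and vascular markers lowest in 3. Gene by gene, these libraries held the highest value of their run for 20.2% to 36.2% of all genes, and the lowest for 14.2% to 38.4%. These counts are a description over runs of 3 or 5 libraries, and the part of those genes in the order was not tested.

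Library sets and runs at 8 h were compared in fits with a term for virus. Between the later and the earlier set limma called 0 of the 32, where 0.107% of all genes were called, and 7 had an unadjusted p under 0.05 (1698 of all genes, 14%), all lower in the later set, with 29 of 32 below 0 (median -0.29). With FPKM as deposited, 53.3% of all calls were higher in the later set, against 84.6% with scaled values. Insig1 at -0.77, Scd1 at -0.74 and Lss at -0.61 came first by p (adjusted p = 0.16 to 0.22). Between the second and the first run of the later set 2 of the 32 were called, where 24.8% of all genes were called. Ebp was higher in the second run (log2 difference 0.43, SE 0.07, adjusted p = 0.0046) and Scap lower (-0.29, SE 0.07, adjusted p = 0.018). The call of Scap was lost without either S133A library (-0.26) or either S40A-S133A library (-0.27). With FPKM as deposited, the median of all genes moved by -0.11, and 19.2% of all calls were higher in the second run, against 42.7% with scaled values. Then 4 of the 32 and 4437 of all genes were called. Between replicate 2 and replicate 1 of the earlier set 0 of the 32 were called (0% of all genes), and 0 had an unadjusted p under 0.05 (1156 of all genes), with Fads2 at -0.20, Scd2 at -0.25 and Fasn at -0.16 first by p (adjusted p = 0.53 to 0.55).

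The genes varied together from library to library at 8 h. After the mean of each run was taken away, the median correlation between pairs of the 32 genes was 0.70 over 15 libraries (without GFP replicate 2) on the log2 scale, against 0.03 between them and other genes. Among the 18 mevalonate and sterol genes the median was 0.77, and 153 of 153 pairs were above 0 (0.20 to 0.99). Without GFP replicate 3 as well, 14 libraries gave 0.53 over the 32 genes and 0.55 over the 18, with 143 of 153 pairs above 0. Over all 16 libraries the median over the 32 was 0.573 with run means removed and 0.46 with them left in. Over the 15 libraries it was 0.575 with run means left in. The libraries share runs and scaling, so these values describe the libraries and carry no test.

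Genes differed in how closely they followed a hand-picked set of Hmgcs1, Sqle, Cyp51, Msmo1, Lss and Fdft1. The sterol genes Tm7sf2, Nsdhl, Hsd17b7, Ebp, Sc5d and Dhcr7 were outside the set, so the values depend on that choice. Each gene's correlations with the set, the gene itself left out, were taken over the 15 libraries after run means were removed, and then averaged. That mean correlation was 0.948 for Fdps, 0.947 for Sqle, 0.945 for Srebf2 and Acly, 0.934 for Insig1, 0.926 for Stard4 and 0.902 for Scd2. Fasn (0.78), Scd1 (0.81) and Scap (0.82) followed less closely. Dhcr7 (0.615), Tm7sf2 (0.66), Fads2 (0.66), Ebp (0.40), Pmvk (0.37), Fads1 (0.34) and Insig2 (0.20) lay lower. Srebf1 stood at -0.234, a value that rests on libraries in which it was listed at 0. With run means left in, the same libraries gave other values and another order, with 0.845 for Srebf2, 0.83 for Fdps, 0.692 for Lss, 0.32 for Fasn, 0.229 for Scap, 0.15 for Tm7sf2 and 0.0597 for Srebf1, which changes sign.

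**Figure D5:**
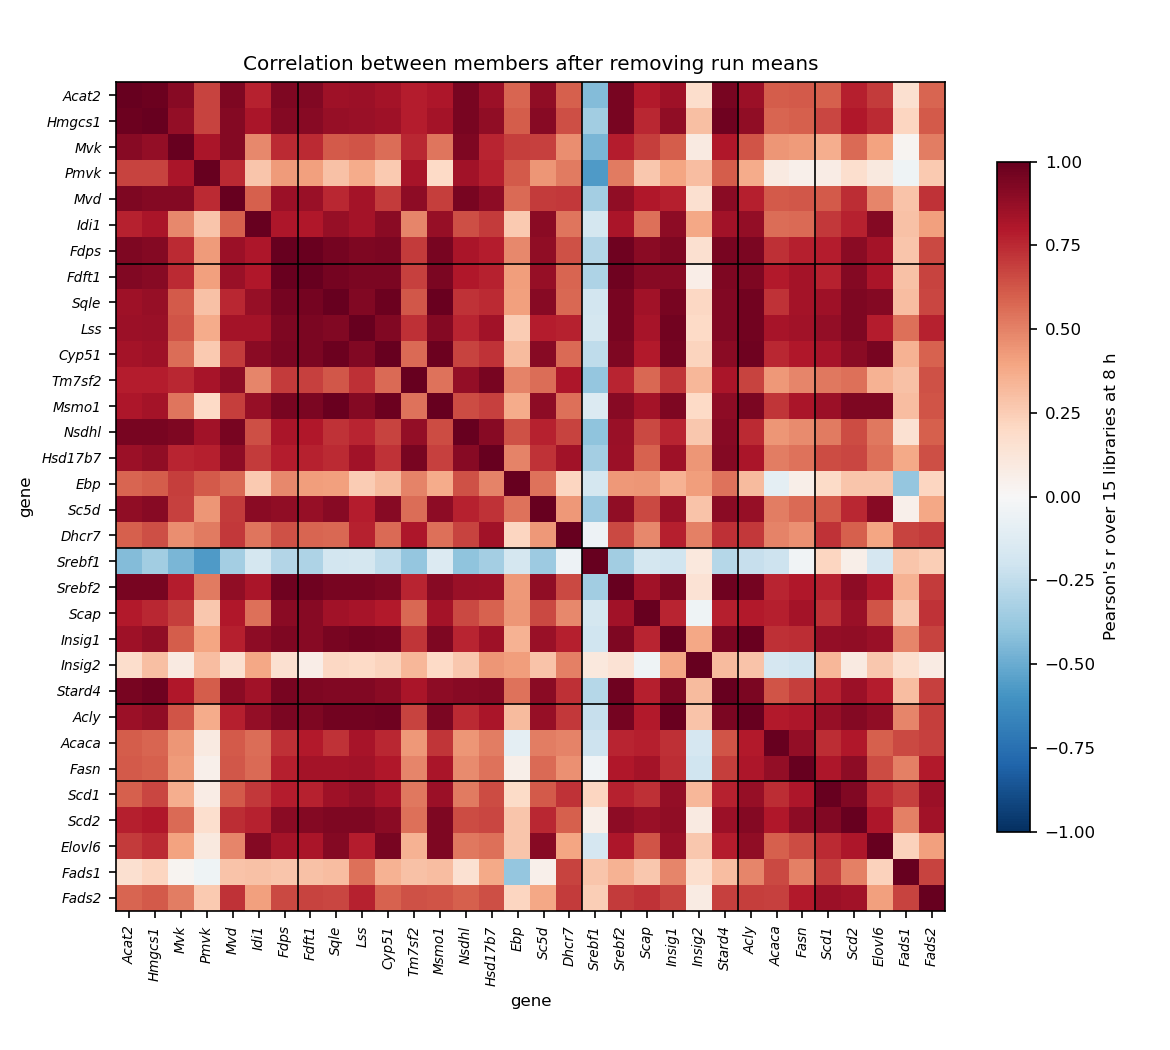
Pearson correlation (colour) between each pair of the 32 genes over the 15 libraries at 8 h without GFP replicate 2, on log2(scaled FPKM + 1) after the mean of each run was taken away. Most mevalonate and sterol genes, with Srebf2, Insig1, Stard4, Acly and Scd2, are highly correlated, and Srebf1, Insig2, Fads1, Pmvk and Ebp stand apart.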

How the data were processed

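The 22 RNA-seq libraries were deposited as tables of FPKM per gene with the authors' own interval for each value. Bowtie 0.12.2, CASAVA 1.7 and Cufflinks are named, with builds mm8 and mm10 and no role for either, per the submitters' processing notes. Coordinates in the files match mm10. FPKM are not counts, so they were divided by median-of-ratios factors per library and tested as log2(scaled FPKM + 1) with limma 3.58.1 (R 4.3.3, with a trend of variance on level), with Benjamini-Hochberg adjustment over 12097 genes of 24490 entries (mean of at least 1 FPKM, entries marked failed left out). The fit at 8 h had a term for library set and the fits of runs a term for virus. The fit of viruses at 4 h and the fit of all 22 libraries had no term for run or set. Residual degrees of freedom were 10 at 8 h, 3 at 4 h, 14 for all 22 libraries, 8 for sets and runs at 8 h and 2 for the runs at 4 h. Scripts were tested on simulated data. Tables and figures used python 3.11.15, pandas 2.3.3, numpy 2.4.6 and matplotlib 3.10.9. The authors' deposited intervals had median half-widths of 3.67% to 6.62% over the 32 genes. Each belongs to 1 library, so they do not cover the scatter between libraries.

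The 32 genes and the other lists were chosen with earlier results of these data known. Named in full were called genes (at most 10 by p) or else the 3 smallest p, and in every library the highest gene of each role and the genes called in most comparisons. Ties there were broken afterwards by p, and Sqle, Stard4 and Scd1 were singled out after their values were seen. Of each other list, up to 3 called genes with the largest difference were named.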

Additional observations from a re-analysis of the deposited data

Results flagged for a closer look

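Of 96 sets of 4 libraries (the 32 genes in S40A, WT and GFP at 8 h), 6 held a value whose gap to the nearest other exceeded Dixon's 95% limit as a share of the range of the 4, and chance gives about 1 in 20. GFP replicate 2 accounts for 3 of the 6. Its Idi1 was 40.7 scaled FPKM, against 0.923 to 2.56 in the other GFP libraries. Its Acaca was 11.7, against 3.42 to 4.37, and its Insig2 was 8.44, against 9.13 to 9.24. Srebf1 was listed at 0 in WT replicate 3, against 3.62 to 4.29 in the other WT libraries, and at 0 in GFP replicate 4, against 4.62 to 5.02 in the other GFP libraries. Fads2 was 79.5 in GFP replicate 1, against 65.4 to 66.9 in the other GFP libraries.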

How the results depend on the processing

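Over 8 h against 4 h, at least 13 of the 32 genes were called under the alternatives run, and 0 reversed. With FPKM as deposited 16 were called (4642 of all genes), and with upper-quartile scaling 14 (5099 of all genes). Counts that left the range of 1.5 times were those of replicate 2 against replicate 1 at 4 h, with 2 to 23 genes called over omissions of 1 library, and of the second against the first run of the later 8 h set, with 1 to 5 over omissions and 4 with FPKM as deposited. Where an omission moved the count out of that range, 482 to 670 of all genes were called between the runs at 4 h. Between the later 8 h runs, 1588 to 3094 were. Over omissions of 1 library, 0 to 3 genes were called for S40A against GFP and 0 to 2 for WT against GFP, later less earlier set. Medians over the 32 genes moved to 0.24 with FPKM as deposited for the runs at 4 h, and in the later 8 h set alone to -0.25 for the interaction of the sites, which changes its sign, 0.47 for S40A against GFP and 0.36 for S40A against WT. Omissions gave medians of -0.63 to -0.48 for 8 h against 4 h, -0.11 to 0.42 for S40A against GFP at 4 h, -0.0918 to 0.41 for WT against GFP at 4 h, -0.29 to 0.23 for S40A against WT at 4 h, -0.19 to 0.31 for S40A against GFP at 8 h minus 4 h, -0.32 to 0.19 for WT against GFP at 8 h minus 4 h, and, later less earlier set, 0.23 to 0.84 for S40A against GFP and -0.28 to 0.20 for WT against GFP. Without the first 4 h run and GFP replicate 2 at 8 h, chosen after the data were seen, 31 of the 32 genes were lower at 8 h, with a median of -0.75. The cause was not tested. Replicate numbers are shared across viruses without a label that pairs the libraries. Deviations of same-numbered libraries correlated at 0.55 to 0.56 at 4 h, -0.04 to 0.05 in the earlier and 0.07 to 0.40 in the later 8 h set. With run as a replicate block 0 of the 32 genes were called in each of the 17 comparisons between viruses, and at 4 h the block left 10 of 11 calls over all genes for WT against GFP, 8 of 11 for S40A against GFP and 7 of 11 for S40A against WT. With 2 libraries a group at 4 h and in the S133A and S40A-S133A groups, small differences were not detectable.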
